A study of Arabidopsis thaliana with 28 samples.

Results

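Mature microRNAs (miRNAs) of seedlings kept with the hormone abscisic acid (ABA) for 12 h were set against those of seedlings kept with ethanol mock for the same 12 h. All were Arabidopsis thaliana of ecotype Col-0, wild type, and whole seedlings were used, so no organ or cell type was separated. Each of the 2 groups had 2 libraries, out of 28 libraries in 14 groups that span 7 times. The sources used here give no ABA dose. The deposited table lists 421 miRNAs with a mean normalised read count for each group. The 351 miRNAs with a mean of at least 10 over the ABA and the mock column of 12 h are described here, and the other 70 lie below it, 12 of them listed at 0 in both columns. Just inside this limit lay miR5660, with 12.6 in ABA and 7.76 in mock, and just outside it miR5631, with 9.10 in ABA and 10.7 in mock.

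Plant miRNAs are cut from hairpin precursors by DICER-LIKE enzymes as a duplex of a 5p and a 3p arm. The guide arm enters ARGONAUTE and directs it to near-complementary transcripts, which are cleaved or translationally repressed, and the other arm, the passenger, is usually lost. Many families are tied to a nutrient, such as copper, phosphate or sulfate, and others to auxin signalling, organ form or phase change. ABA is the hormone of water deficit and of seed dormancy, and several miRNA families have been linked to it.

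The sequences below carry the main findings at 12 h and are grouped by shared seed. They are the mature sequences of RefSeq TAIR10.1, given 5′ to 3′, with the seed (bases 2 to 8) in capitals. The first set is led by miRNAs that were higher in ABA.
miR2111b-3p: aUCCUCGGgauacaguuuacc
miR2111a-5p: uAAUCUGCauccugagguuua
miR399d: uGCCAAAGgagauuugccccg
miR399f: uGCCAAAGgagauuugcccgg
miR397a: uCAUUGAGugcagcguugaug
miR397b: uCAUUGAGugcaucguugaug
miR398a-3p: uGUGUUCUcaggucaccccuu
miR398b-3p: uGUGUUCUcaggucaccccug
miR408-5p: aCAGGGAAcaagcagagcaug
miR824-3p: cCUUCUCAucgauggucuaga
miR156f-3p: gCUCACUCucuauccgucacc
miR393a-5p: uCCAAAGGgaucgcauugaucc
The second set is led by miRNAs that were lower in ABA, with family members that were not.
miR169b-5p: cAGCCAAGgaugacuugccgg
miR169a-5p: cAGCCAAGgaugacuugccga
miR169f-5p: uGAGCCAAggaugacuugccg
miR167a-3p: gAUCAUGUucgcaguuucacc
miR390a-5p: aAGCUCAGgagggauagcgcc
miR395b: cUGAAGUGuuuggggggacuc
miR395a: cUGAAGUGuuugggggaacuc

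With positions counted from 1 at the 5′ end, miR397a and miR397b differ by G13U, miR398a-3p and miR398b-3p by U21G, miR399d and miR399f by C20G, miR169b-5p and miR169a-5p by G21A, and miR395a and miR395b by A17G. None of these differences lies in the seed. In TAIR10.1 miR2111b-3p lies at chr5:400464-400484 (plus strand), miR397a at chr4:2625960-2625980 (plus strand, opposite the protein-coding gene ENT6) and miR398b-3p at chr5:4691107-4691127 (plus strand, opposite AT5G14550). On the lowered side miR169b-5p lies at chr5:8527511-8527531, miR167a-3p at chr3:8108172-8108192 and miR390a-5p at chr2:16061971-16061991, all on plus strands with no protein-coding gene annotated over them. The hairpins of miR397b and miR857 are neighbours on the minus strand of chromosome 4, with 532 bases between the starts of the mature sequences. Those of miR395a and miR395b lie on opposite strands of chromosome 1, with 1334 bases between the starts. A sequence that several loci share, such as the 5p arm of MIR2111a and MIR2111b, cannot be assigned to 1 of them. Some rows of 1 sequence hold nearly equal values, as for miR2111-5p, and others differ, as within miR169 and miR5635, so such rows are uncertain.

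The group means summed to 5800215 for ABA and 4871779 for mock at 12 h, and the 10 highest rows held 58.7% of the ABA sum and 50.7% of the mock sum. Each mean was resolved into values of its 2 libraries wherever a single pair of whole counts gives it, which held for both groups in 297 of the 351 miRNAs. The libraries of a group are called a and b by their size factor, and these letters match nothing between groups. The 54 miRNAs without library values have a mean of at least 7034.9 and hold 95.2% of the ABA sum and 94.7% of the mock sum. The recovered counts came to 374441 and 339074 in the ABA libraries and to 300142 and 264199 in the mock libraries, and the full depth of a library cannot be given. Between the libraries of a group the log2 difference had an SD of 0.402 in ABA and 0.313 in mock over values of at least 10, against 0.356 to 0.639 in the groups of the other times. The labels do not say whether the libraries came from separate cultures, and the p-values therefore cover no more than the spread between these libraries, which may be technical.

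At 12 h most of the miRNAs known from copper supply were higher in ABA. Of those known from phosphate supply, miR2111b-3p, the miR2111-5p sequence and miR399d were higher. A smaller set led by miR169b, miR167a-3p, miR390-5p and part of the miR395 family was lower. Most miRNAs moved little: 260 of the 351 (74.1%) had group means within 1.5-fold of each other, and the median log2 ratio was 0.0023. Group means were past 2-fold higher in ABA for 26 miRNAs (7.41%) and past 2-fold lower for 20 (5.70%). The ratios ran from 2.44 for miR2111b-3p to -2.18 for miR169b-3p, on the log2(value + 1) scale, which understates the change of low miRNAs. Of 344 miRNAs tested with limma, 24 (6.98%) rose and 15 (4.36%) fell at a Benjamini-Hochberg adjusted p under 0.05, with the spread estimated from all 14 groups. These were 21 and 11 distinct sequences. Of the 37 called miRNAs described here, 22 rose and 15 fell. The 2 other risen miRNAs, miR826a and miR826b, had means under 10. Since whole seedlings were sampled, fewer cells of a type and less of a miRNA per cell cannot be told apart.

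The split between rises and falls depended on the scaling. Scaling each column to its own total, an alternative chosen after seeing the data, moved the median log2 difference of all tested miRNAs to -0.25. It gave 16 rises and 33 falls. The totals add every row, so a sequence with several rows enters several times. The miR393-5p sequence entered with 2 rows, at 744804 and 744805 in ABA and at 349845 each in mock. The miR166-3p sequence entered with 7 rows, that of miR166a-3p at 114612 in ABA and 126808 in mock. The part of such rows in the shift was not tested. Quantile normalization moved the median to -0.14 and also gave 16 and 33. Centring on the median gave 20 and 19. With only the 4 libraries of 12 h behind the spread, 98 miRNAs passed (28.5%), 48 raised and 50 lowered, and all 39 were among them. The authors' deposited table gives an adjusted p under 0.05 for 97 of the 351 (27.6%), 48 higher and 49 lower in ABA. It calls 37 of the 39 that limma called, all in the same direction.

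**Figure D1:**
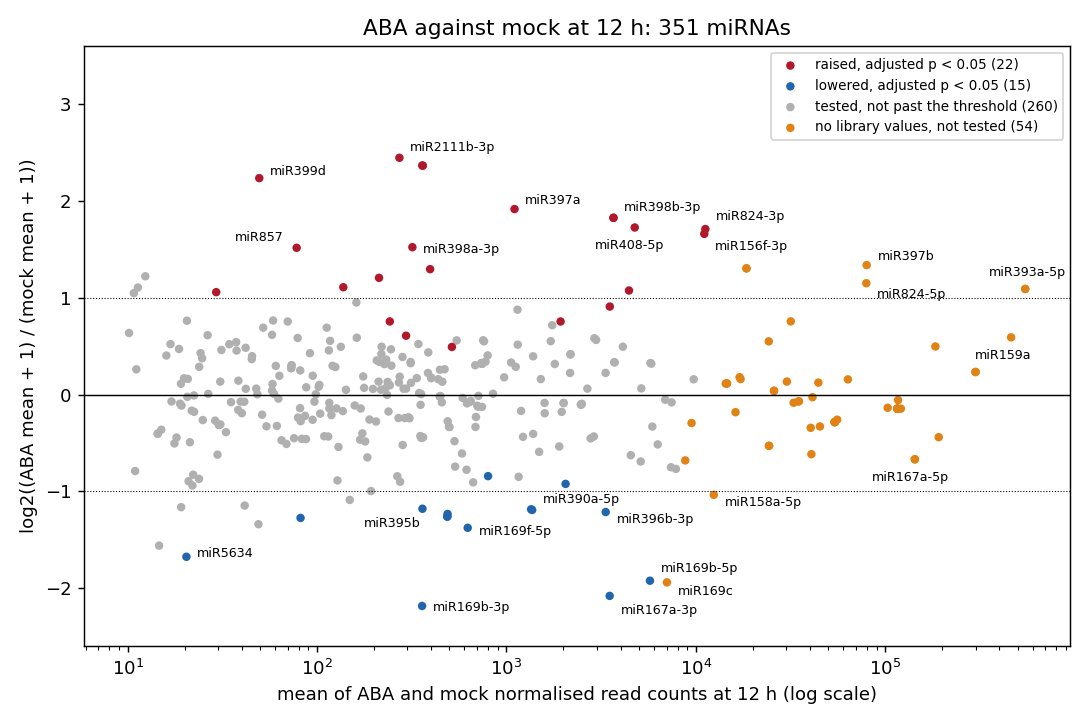
Each point is 1 of the 351 miRNAs, with the mean of the ABA and mock normalised read counts at 12 h on a log x axis and the log2 ratio of ABA over mock on the y axis; dotted lines mark 2-fold. Of the 22 risen miRNAs (red) and 15 fallen ones (blue), 30 lie past 2-fold. Others, such as miR5635c at 0.49, lie within the broad band around 0, and 8 tested miRNAs past 2-fold were not called (grey). The 54 miRNAs without library values (orange) lie at the high end.

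Among miRNAs with a mean of at least 10, the phosphate list held the largest rises. Its families are miR399, which targets the ubiquitin-conjugating enzyme PHO2, miR2111, which targets F-box transcripts, miR827 and miR778. The values of miR2111b-3p were 438.6 and 482.7 in the ABA libraries and 94.9 and 72.7 in the mock libraries. The groups were far apart, and the limma log2 difference was 2.46 (SE 0.22, adjusted p = 4.6e-08). The 5p sequence shared by MIR2111a and MIR2111b, in its row for miR2111a-5p, had 621.7 and 583.6 in ABA and 112.8 and 119.5 in mock, a difference of 2.37 (SE 0.23, adjusted p = 1.38e-07). The miR2111b-3p arm and the shared 5p sequence thus stood higher in each ABA library than in either mock library. The other arm of this family, miR2111a-3p, was below the mean of 10, at 1.66 in ABA and 5.12 in mock. Lower in abundance, miR399d had 83.4 and 81.4 in ABA and 14.5 and 18.9 in mock, a difference of 2.25 (SE 0.44, adjusted p = 0.000866).

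The other miR399 members did not pass the test. All of them share the seed of miR399d except the passenger arm miR399c-5p, which averaged 172.2 in ABA and 206.2 in mock (log2 difference -0.28, SE 0.30, adjusted p = 0.637). The most abundant of them, miR399f, averaged 1230 in ABA and 1009 in mock, with a log2 difference of 0.29 (SE 0.25, adjusted p = 0.522), and miR399a, miR399b and miR399c-3p had differences of 0.20, 0.33 and 0.35. The level of miR827, whose target NLA acts on phosphate transporters, was 460.4 in ABA and 412.5 in mock. By limma 4 of the 13 tested phosphate miRNAs rose and 0 fell, against 6.98% and 4.36% of all tested miRNAs. Among these rises the rows of miR2111a-5p and miR2111b-5p hold 1 sequence. The 10 described ones had a median log2 ratio of 0.34, against 0.0023 over all 351, or 0.09 with columns scaled to their totals. The difference between the large rises of miR2111 and miR399d and the small values of the other miR399 members was not tested.

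The copper list moved more broadly. Under copper shortage the factor SPL7 induces its families, which lower transcripts of copper proteins: miR397 and miR857 those of laccases, miR398 those of copper/zinc superoxide dismutases and their chaperone, and miR408 those of plantacyanin and laccases. Of 8 tested members 7 rose and 0 fell by limma, against 6.98% and 4.36% of all tested miRNAs. The 11 described rows hold 9 sequences, since miR398b and miR398c share both arms, and the rises include both rows of their 3p sequence. The median log2 ratio of the 11 described was 1.52, or 1.26 with columns scaled to their totals, and 10 of the 11 were past 2-fold between group means, where 7.41% of all 351 were. The level of miR397a was 1949 and 1540 in ABA and 486.4 and 437.1 in mock (log2 difference 1.91, SE 0.26, adjusted p = 1.73e-05). The 3p guide that MIR398b and MIR398c share had, in its row for miR398b-3p, 6640 and 4814 in ABA and 1509 and 1723 in mock (1.81, SE 0.31, adjusted p = 0.000164). In both, the lower ABA library lay well above the higher mock library.

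The other locus of that family gave miR398a-3p at 474.2 and 472.3 in ABA and at 164.1 and 164.3 in mock, with libraries of each group nearly equal (1.52, SE 0.21, adjusted p = 2.34e-05). For miR408-5p the values were 7396 and 7206 in ABA and 2302 and 2114 in mock (1.73, SE 0.29, adjusted p = 0.000151). The guide arm miR408-3p rose less, by 1.07 (SE 0.25, adjusted p = 0.00626), and lost its call without ABA library b (0.94), without mock library a (1.00) and with quantile normalization (0.51). The low-abundance miR857 had 138.4 and 94.0 in ABA and 40.2 and 39.8 in mock (1.49, SE 0.36, adjusted p = 0.00752). It lost the call without ABA library a (1.21, adjusted p = 0.137) and without mock library a or b (adjusted p = 0.0521 and 0.0546). The member that did not follow was miR398a-5p, at 461.3 in ABA and 704.1 in mock, with a limma log2 difference of -0.61 (SE 0.29, adjusted p = 0.214). The authors' deposited table calls miR398a-5p lower in ABA, with an adjusted p of 0.00158. With only the libraries of 12 h behind the spread it also fell by limma (adjusted p = 0.000101).

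**Figure D2:**
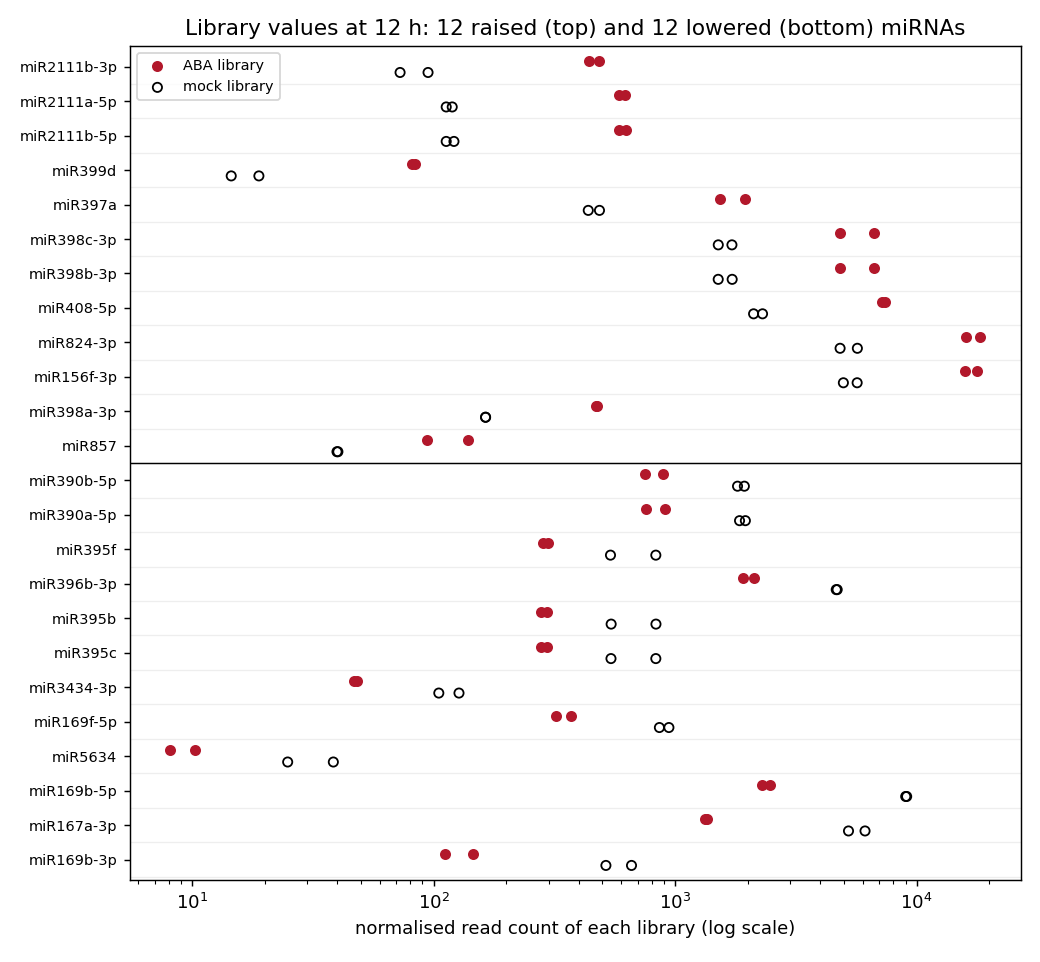
Normalised read counts of single libraries at 12 h on a log axis, ABA as filled red points above mock as open circles. Shown are the 12 risen and the 12 fallen miRNAs with the largest log2 differences. They were chosen among those with a mean of at least 10 and with libraries that did not overlap between the groups. By this choice the ABA points of each row lie on 1 side of both mock points. The log2 difference is largest for miR2111b-3p among these rises, at 2.46, and for miR169b-3p among the falls, at -2.19.

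Abundant copper miRNAs showed the same direction in their group means, which carry no library values. The level of miR397b, which outweighs miR397a by far, was 114126 in ABA and 45191 in mock, a log2 ratio of 1.34, with an adjusted p of 1.54e-22 in the authors' deposited table. The passenger sequence shared by miR398b-5p and miR398c-5p was at 26312 in ABA and 10667 in mock, a log2 ratio of 1.30. Where of several fitting pairs of counts the only one within 2-fold was taken, an alternative added after seeing the data, its libraries came out at 26010 and 26614 in ABA and at 10758 and 10577 in mock (limma log2 difference 1.30, SE 0.21, adjusted p = 0.000121). The guide and the passenger of this duplex were thus both more than 2-fold higher in ABA.

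Among the most abundant rows, miR393-5p stood out. It targets transcripts of the auxin receptors TIR1 and AFB, and its rows for MIR393a and MIR393b, 1 sequence, were each at 744804 to 744805 in ABA and 349845 in mock, 12.8% of the ABA sum and 7.18% of the mock sum. The log2 ratio was 1.09, with an adjusted p of 4.15e-11 in the authors' deposited table. The guide of the MYB regulator miR159a was at 554002 in ABA and 368009 in mock (log2 ratio 0.59), and that of miR159b-3p at 214851 in ABA and 152309 in mock (0.50). In the authors' deposited table these have adjusted p of 4.75e-05 and 0.000933. The ARGONAUTE regulator miR168a-5p was at 324069 in ABA and 275734 in mock, a log2 ratio of 0.23 that is smaller than the 0.25 between the column sums, with an adjusted p of 0.24 in the authors' deposited table. The HD-ZIP III regulator miR166a-3p had 114612 in ABA and 126808 in mock (-0.15).

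Other abundant sequences were lower in ABA. The level of miR158a-3p was 162315 in ABA and 220285 in mock (log2 ratio -0.44, adjusted p of 0.00329 in the authors' deposited table). The guide shared by miR167a-5p and miR167b, which targets the auxin response factors ARF6 and ARF8, was at 110369 in ABA and 175522 in mock in its row for miR167a-5p (-0.67, adjusted p of 2.39e-06 in the authors' deposited table). With the same seed, miR167d went the other way, at 39777 in ABA and 23566 in mock (0.76, adjusted p of 1.44e-07 in the authors' deposited table), and miR167c-5p, with another seed, averaged 1571 in ABA and 1195 in mock (limma log2 difference 0.39, SE 0.17, adjusted p = 0.174). A passenger arm, miR158a-5p, was at 8149 in ABA and 16714 in mock (-1.04), and passed limma with the pairs within 2-fold (SE 0.23, adjusted p = 0.00373). In all, 22 of the 54 miRNAs without library values had a ratio above 0 and 32 below it. Of the 54, 6 were past 2-fold higher and 2 lower, against 7.41% and 5.70% of all 351. The authors' deposited table calls 10 of them higher and 10 lower, where it calls 27.6% of all 351.

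The stomatal list is miR824 alone, a regulator of AGL16, a MADS-box factor of the stomatal lineage. The level of miR824-3p was 16049 and 18306 in ABA and 4822 and 5685 in mock (limma log2 difference 1.71, SE 0.37, adjusted p = 0.00297). It passed in each fit with 1 library left out, between 1.59 and 1.83, but not with quantile normalization, at 1.11 (adjusted p = 0.0603). The guide miR824-5p, without library values, was at 109323 in ABA and 49285 in mock (log2 ratio 1.15, adjusted p of 9.66e-17 in the authors' deposited table).

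A further large rise was that of the passenger miR156f-3p, at 15932 and 17702 in ABA and 5673 and 4975 in mock (1.66, SE 0.40, adjusted p = 0.00752). It lost the call without ABA library b (1.58), without mock library b (1.56) and with quantile normalization (0.92). The smaller rises were those of miR866-3p (1.29), miR861-3p (1.21), miR866-5p (1.09), miR8168 (1.06), miR160c-3p (0.91), miR8180 (0.75), miR166e-5p (0.75), miR5635d (0.61) and miR5635c (0.49). Of these 9, miR861-3p alone passed in all 4 fits with 1 library of 12 h left out. The call of miR160c-3p was lost without ABA library b (0.85) or mock library a (0.82), that of miR166e-5p without ABA library b (0.67) or either mock library (0.73 and 0.77), and those of the other 6 in each of the 4 fits. The calls of miR8168, miR160c-3p, miR8180, miR166e-5p, miR866-5p and both miR5635 were lost with columns scaled to their totals. The rows miR5635a and miR5635b hold the same sequence as miR5635c and miR5635d and did not pass.

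The nitrogen list, miR826a and miR826b, lies under the mean of 10. These miRNAs are known from nitrogen starvation, where they target a glucosinolate enzyme. The level of miR826a was 11.2 and 13.8 in ABA and 0 in both mock libraries, and it passed limma (adjusted p = 0.000866). That of miR826b was 9.16 and 10.3 in ABA and 0 and 1.99 in mock (adjusted p = 0.0427), and lost the call without ABA library a, ABA library b or mock library a, and also with a pseudocount of 0.5 (adjusted p = 0.071), median centring (0.0509) and columns scaled to their totals (0.0553). No fold is given for either at such counts.

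The NF-Y list is the miR169 family, whose guides target the NF-YA subunits of a CCAAT-binding factor. Of 16 tested members 5 fell and 0 rose by limma, against 4.36% and 6.98% of all tested miRNAs. The 18 described rows hold 8 sequences, and their median log2 ratio was -0.10, or -0.36 with columns scaled to their totals. The largest fall among all tested miRNAs was that of miR169b-3p, at 111.9 and 145.6 in ABA and 517.2 and 660.1 in mock (log2 difference -2.19, SE 0.34, adjusted p = 8.11e-05). Its guide miR169b-5p was at 2300 and 2474 in ABA and 9013 and 9097 in mock (-1.92, SE 0.25, adjusted p = 1e-05). Between group means the passenger was 4.54-fold and the guide 3.79-fold lower in ABA. The row of miR169c, the same sequence as miR169b-5p at another locus, was at 2908 in ABA and 11162 in mock (log2 ratio -1.94), and with the pairs within 2-fold its limma log2 difference was -1.94 (SE 0.23).

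Within the family the members parted. With a single base different from miR169b-5p at its 3′ end, miR169a-5p was at 28797 in ABA and 19684 in mock, a log2 ratio of 0.55 with an adjusted p of 0.000268 in the authors' deposited table. The 7 rows from miR169h to miR169n, 1 sequence, did not pass, with log2 ratios of -0.12 to -0.07. The rows miR169d, miR169e, miR169f-5p and miR169g-5p list 1 mature sequence, yet differed: miR169f-5p had 372.4 and 321.0 in ABA and 942.9 and 861.2 in mock (-1.38, SE 0.25, adjusted p = 0.000379) and miR169g-5p fell by 1.18 (SE 0.27), whereas miR169d and miR169e had differences of 0.56 (SE 0.33, adjusted p = 0.327) and 0.55. The call of miR169g-5p was lost without ABA library b (-1.15) or mock library a (-1.08). The authors' deposited table calls miR169d and miR169e higher in ABA (adjusted p of 0.00274 and 0.00329). It calls miR169f-5p and miR169g-5p lower (4.25e-15 and 3.65e-09). With only the libraries of 12 h behind the spread, miR169d and miR169e also rose by limma (adjusted p = 0.00028 and 0.00036). How the authors counted reads of a sequence with several loci is not given in the sources used here, so these 4 rows are uncertain. The passenger miR169f-3p fell by 0.92 (SE 0.26, adjusted p = 0.0232), a call lost in each of the 4 fits with 1 library left out, at -1.06 to -0.77.

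The auxin list had falls and a rise. Its passenger miR167a-3p was at 1353 and 1328 in ABA and 5225 and 6116 in mock (log2 difference -2.08, SE 0.34, adjusted p = 0.000116), with tight ABA libraries far below both mock libraries. The sequence shared by miR390a-5p and miR390b-5p, which triggers the TAS3 small RNAs that limit auxin response factors, was at 759.1 and 904.6 in ABA and 1849 and 1954 in mock in its row for miR390a-5p (-1.20, SE 0.18, adjusted p = 6.2e-05). The passenger miR393a-3p fell by 0.85 (SE 0.26, adjusted p = 0.0357), a call lost in each fit with 1 library left out, at -0.97 to -0.73, and in limma without the trend (adjusted p = 0.0668), and miR160c-3p rose. By limma 4 of the 16 tested fell and 1 rose, against 4.36% and 6.98% of all tested miRNAs, so the count of rises is near the overall share. The median log2 ratio of the 24 described was 0.11, which turned to -0.14 with columns scaled to their totals. The guides miR160a-5p and miR164a, regulators of auxin response factors and NAC factors, had log2 ratios of 0.11 and 0.33 and no call by limma, miR160a-5p for want of library values.

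The tasiRNA list, the triggers of phased small RNAs, had 2 falls among 7 tested, both the miR390-5p sequence, where 4.36% of all tested miRNAs fell, and a median log2 ratio of -0.69, or -0.94 with columns scaled to their totals. Its other main trigger miR173-5p, which starts the TAS1 and TAS2 pathways, was at 3909 in ABA and 6314 in mock (limma log2 difference -0.69, SE 0.25, adjusted p = 0.0825). With only the libraries of 12 h behind the spread, where 28.5% of all tested miRNAs passed, 5 of the 7 fell.

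Further falls stood outside these families. The passenger miR396b-3p was at 1903 and 2122 in ABA and 4648 and 4690 in mock (-1.22, SE 0.33, adjusted p = 0.0163). The values of miR3434-3p were 46.8 and 48.2 in ABA and 105.1 and 127.4 in mock (-1.27, SE 0.34, adjusted p = 0.0163). At low counts, miR5634 had 8.14 and 10.3 in ABA and 38.5 and 24.9 in mock (-1.65, SE 0.53, adjusted p = 0.0463). Each of the 3 lost its call in all 4 fits with 1 library left out, though no sign changed: the values ran from -1.29 to -1.14 for miR396b-3p, from -1.41 to -1.13 for miR3434-3p and from -1.96 to -1.35 for miR5634. The call of miR5634 was also lost in limma without the trend (adjusted p = 0.051) and with a pseudocount of 0.5 (adjusted p = 0.0551).

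The sulfate list, miR395, targets ATP sulfurylases and a sulfate transporter and is known to be induced by sulfate shortage. Its 6 rows hold 2 sequences that differ by 1 base, and these differed at 12 h. The sequence that miR395b shares with miR395c and miR395f was at 295.1 and 278.6 in ABA and 543.7 and 833.4 in mock in its row for miR395b (-1.23, SE 0.36, adjusted p = 0.0295). The sequence of miR395a, miR395d and miR395e was at 410.1 and 481.5 in ABA and 407.7 and 493.8 in mock in its row for miR395e, with groups that overlapped (-0.01, SE 0.35, adjusted p = 0.995). By limma 3 of the 6 tested rows, 1 sequence, fell and 0 rose, against 4.36% and 6.98% of all tested miRNAs, and the median log2 ratio was -0.63. The 2 mock libraries of miR395b were unequal, and the fall lost its call without mock library b (-0.92, adjusted p = 0.313) and without either ABA library (-1.27 without a, -1.19 without b). It also lost the call in limma without the trend (adjusted p = 0.0624).

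**Figure D3:**
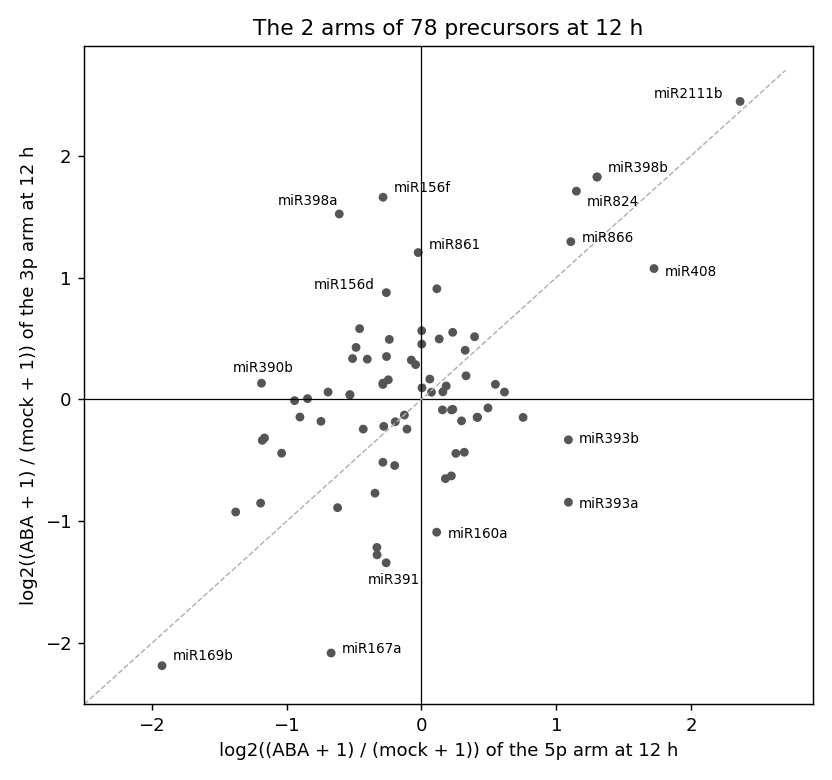
Log2 ratio of ABA over mock group means at 12 h for the 5p arm (x axis) and the 3p arm (y axis) of 78 precursors; the dashed line marks equal ratios. Points in the upper left and lower right quadrants are precursors whose arms pointed in opposite directions, with miR398a, miR156f and miR393a the farthest from the line.

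The 2 arms of a precursor often differed. Both arms were described for 78 precursors, and in 43 of them the log2 ratios had the same sign. In 6 precursors both arms were more than 2-fold higher in ABA: miR2111b, miR398b, miR398c, miR408, miR824 and miR866. Of these, miR398b and miR398c share both arm sequences and so repeat 1 result. Only miR169b had both arms more than 2-fold lower. In 11 precursors the arms were over 1 apart on the log2 scale. The widest gap was that of miR398a, at -0.61 for the 5p arm and 1.52 for the 3p guide. In miR156f the guide miR156f-5p was at 48700 in ABA and 59308 in mock (-0.28) and the 3p arm at 1.66. In miR393a the guide had a ratio of 1.09 and the passenger -0.84. In miR390b the guide had -1.19 and the passenger 0.13, and in miR167a both were lower in ABA, the guide at -0.67 and the passenger at -2.08. Guides such as miR156f-5p, miR393a-5p, miR167a-5p and miR2111b-5p are sequences shared by several loci, while the 3p arms of these precursors differ between loci. The passenger arms as a list had 4 rises and 5 falls among 40 tested, against 6.98% and 4.36% of all tested miRNAs, and a median log2 ratio of 0.07 in 45 described, which turned to -0.18 with columns scaled to their totals.

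**Figure D4:**
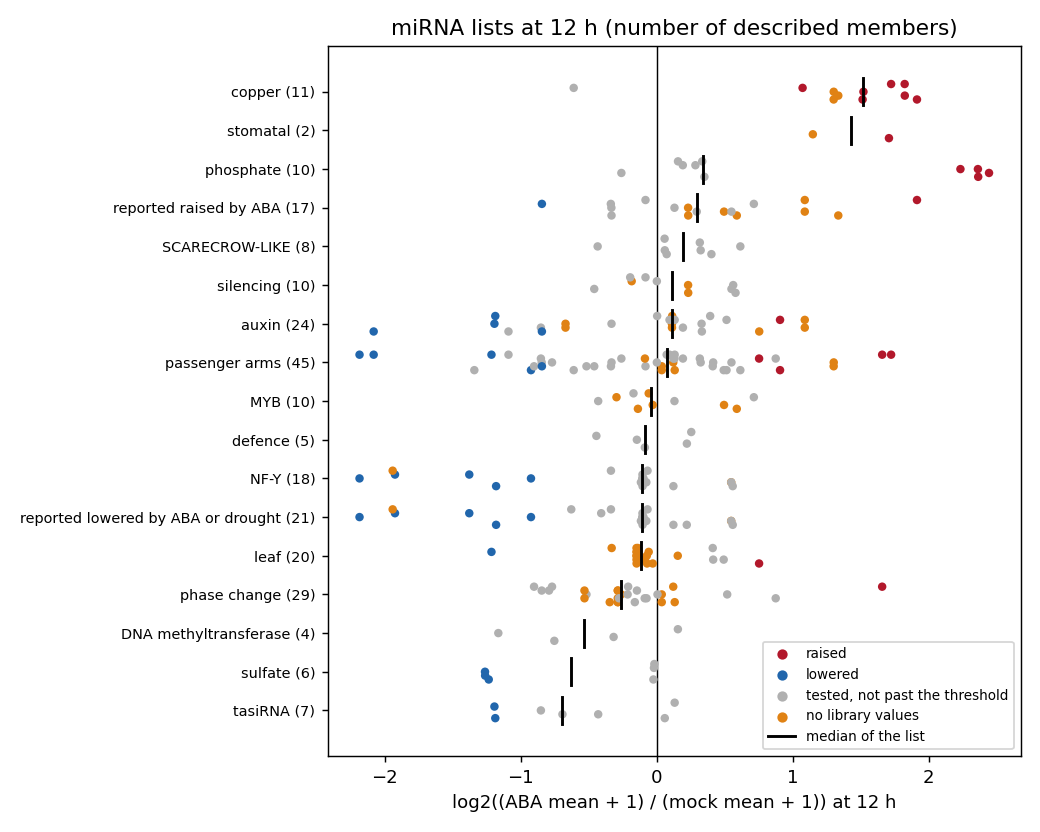
Log2 ratio of ABA over mock group means at 12 h (x axis) for the described members of each list, with the list's median as a black bar; red rose and blue fell by limma, grey did not pass, orange had no library values. The copper members lie to the right of 0 but for miR398a-5p, whereas the phosphate, sulfate and NF-Y members split into members with a call and members without.

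The list reported as raised by ABA, with the families miR393, miR159, miR394, miR168, miR402 and miR397, had 1 rise, miR397a, and 1 fall, miR393a-3p, among 11 tested, where 6.98% of all tested miRNAs rose and 4.36% fell. With only the libraries of 12 h behind the spread it had 3 rises and 1 fall, where 28.5% of all tested miRNAs passed. Its abundant guides miR393-5p, miR397b, miR159a, miR159b-3p and miR168-5p were untested for want of library values. The authors' deposited table calls 8 rows of the list higher and 1 lower in ABA, where it calls 27.6% of all 351. Its 17 described members had a median log2 ratio of 0.30, or 0.04 with columns scaled to their totals. The low miR402 averaged 66.9 in ABA and 54.3 in mock (log2 difference 0.31, SE 0.39, adjusted p = 0.702), and miR394a was at 440.1 in ABA and 554.3 in mock. The list reported as lowered by ABA or drought joins miR169 with miR842 and miR846. Its 5 falls among 19 tested are all miR169, where 4.36% of all tested miRNAs fell, and its median was -0.11 in 21 described. The spread of only the 12 h libraries gave it 8 falls and 2 rises, where 28.5% of all tested miRNAs passed. The authors' deposited table calls 8 of its rows lower and 3 higher. Both settings include falls of miR842 and miR846-3p, at adjusted p of 0.0219 and 4.19e-05 in the authors' deposited table. Their log2 ratios were -0.41 and -0.63, and miR846-5p, at 0.22, had no call in either.

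In the families of development, 5 of 20 leaf and 17 of 30 phase change members could be tested. The leaf list (miR319, miR396, miR165 and miR166, regulators of TCP, GRF and HD-ZIP III factors) had 1 rise, miR166e-5p, and 1 fall, miR396b-3p, among 5 tested, and a median log2 ratio of -0.11 in 20 described. The spread of only the 12 h libraries gave it 4 rises and 1 fall, and the authors' deposited table also calls 4 rows higher and 1 lower. Its guides lack library values, and miR319a, at 114334 in ABA and 118985 in mock, is an example of their small ratios (-0.06). The phase change list of SPL and AP2 regulators, miR172, miR156 and miR157, had 1 rise, miR156f-3p, among 17 tested. This is near the 6.98% of all tested miRNAs that rose, and the median was -0.26 in 29 described. The spread of only the 12 h libraries gave it 2 rises and 4 falls, and the authors' deposited table calls 2 rows higher and 7 lower. Both counts of the phase change list lie near the shares over all miRNAs, 28.5% and 27.6%. The guide miR157a-5p was at 19902 in ABA and 28733 in mock (-0.53).

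The remaining lists had 0 calls by limma: silencing (7 tested, median log2 ratio 0.12 in 10 described), defence (5 tested, -0.09), SCARECROW-LIKE (8 tested, 0.20), MYB (4 tested, -0.04 in 10 described) and DNA methyltransferase (4 tested, -0.53). The medians of the silencing and SCARECROW-LIKE lists turned to -0.13 and -0.06 with columns scaled to their totals. With only the libraries of 12 h behind the spread, where 28.5% of all tested miRNAs passed, 3 silencing miRNAs rose, 1 defence miRNA fell, and 2 of the DNA methyltransferase list fell, among them miR773a, at 5503 in ABA and 9264 in mock. The same setting gave 1 rise and 1 fall each in the SCARECROW-LIKE and MYB lists. The DICER-LIKE1 regulator miR162a-3p, at 3489 in ABA and 2332 in mock, had a log2 difference of 0.59 (SE 0.25, adjusted p = 0.144).

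The response at 12 h was then set against that of the other times, each with its own ABA and mock libraries. Of the 39 called miRNAs, 22 had the sign of 12 h at all 6 other times, and of all 351 described 77 had it at all 6. The 39 include miR826a and miR826b, which are not among the 351. At 5 or 6 of the other times 32 of the 39 had it, a count that was not made for all miRNAs. In limma, 5 of 340 tested miRNAs (1.47%) differed between 12 h and the mean of the other 6 times, 1 upwards and 4 downwards. The difference was -2.08 for miR395b (SE 0.39, adjusted p = 0.00351), with -2.07 and -2.06 for the same sequence at miR395c and miR395f. Its log2 ratio of group means was 2.27 at 0.5 h, 2.25 at 1 h, 1.09 at 3 h, 0.45 at 6 h, 0.43 at 9 h, -1.26 at 12 h and -1.16 at 24 h. The sequence was thus higher in ABA at the 5 earlier times and lower at the 2 last ones.

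For miR2111b-3p the difference from the other times was 1.03 (SE 0.23, adjusted p = 0.0191), with log2 ratios of -0.38, 0.40, 2.09, 2.28, 2.06, 2.44 and 2.12 from 0.5 to 24 h. The ratio at 12 h was close to those from 3 h on, and the 2 first times were the low ones. For miR169f-3p it was -1.18 (SE 0.28, adjusted p = 0.0271), with ratios of 1.08, 1.54, 0.52, 0.01, -0.48, -0.92 and -1.05. All 5 calls rested on mock library b of 12 h: without it 0 of 340 passed, and the difference of miR395b was -1.77 (adjusted p = 0.137), that of miR2111b-3p 0.84 and that of miR169f-3p -1.04. Without ABA library a or b of 12 h the calls of miR2111b-3p and miR169f-3p were lost too, and without mock library a that of miR169f-3p.

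**Figure D5:**
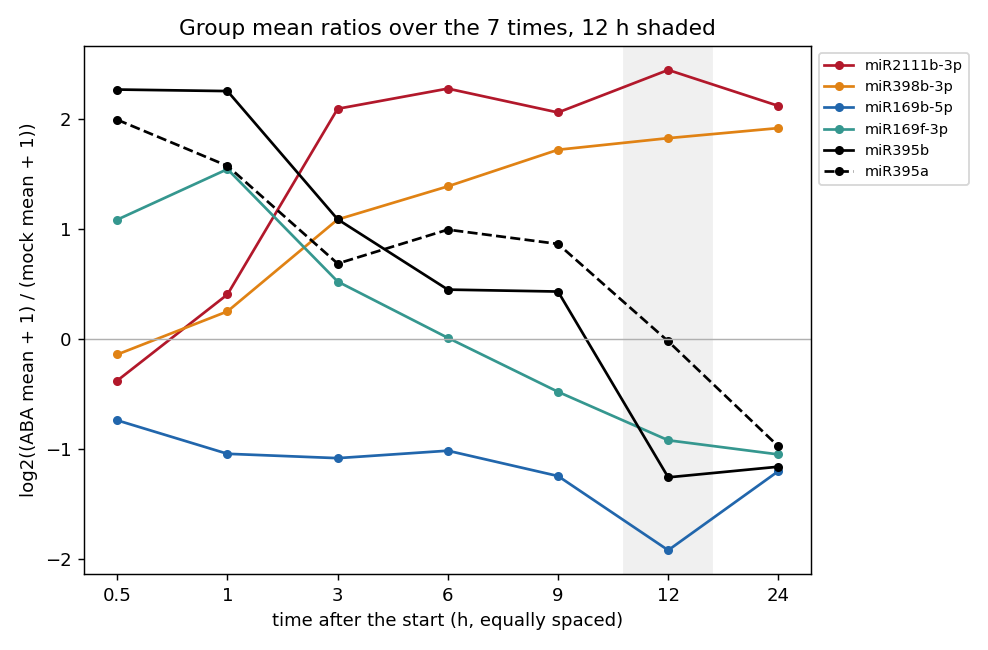
Log2 ratio of ABA over mock group means (y axis) at the 7 times (x axis, h, equally spaced) for 6 miRNAs, with 12 h shaded. The ratio of miR395b was 2.27 at 0.5 h and -1.26 at 12 h, whereas miR169b-5p was below 0 at every time and miR398b-3p above 0 from 1 h on.

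Against the neighbouring times no miRNA passed in limma. For 12 h minus 9 h 0 of 344 passed, with 12 at an unadjusted p under 0.05 and a smallest adjusted p of 0.495. The smallest p belonged to the miR395b sequence, with -1.63 (SE 0.51) for miR395b. For 12 h minus 24 h 0 of 344 passed, with 20 at an unadjusted p under 0.05 and a smallest adjusted p of 0.696. There the difference of miR395b was -0.06 (SE 0.51), an error too wide to tell the times apart.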

How the data were processed

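RNA of 28 seedling libraries was read as miRNAs, 4 of them at 12 h. FastQC, STAR and the TAIR10 build are named in the submitters' processing notes. The sources used here do not give versions, the counter, the normalization or the authors' test. Per the file headers, the authors deposited a normalised signal for each group and time, and the adjusted p-value of their own comparison.

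Each deposited signal value is a mean of 2 counts over size factors, so library values were recovered wherever 1 pair of whole counts fits (90.3% of 5894 values). limma 3.58.1 in R 4.3.3 (lmFit, eBayes with trend) was fitted to log2(value + 1) with 14 group means, two-sided, Benjamini-Hochberg adjusted, threshold 0.05. A miRNA was tested if 2 or more of the 4 libraries of 12 h held a value of at least 1. Contrasts were ABA minus mock at 12 h, and this minus the other 6 times, 9 h or 24 h. The design had allowed for columns that hold group means. The steps were tested on simulated data.

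Named were the 12 largest rises and 12 largest falls with a mean of at least 10 and libraries that did not overlap. Also named were the 10 highest rows, the calls against other times, and list members as examples. Of the rows without library values, those past 2-fold or among the 5 highest and 5 lowest ratios were named. miRNAs and lists were chosen with earlier results of these data known. Sequences and positions were matched by name to TAIR10.1 (414 of 421 names, 336 distinct sequences, 45 shared by 123 rows), with none carried between builds. Alternatives were other pseudocounts, filters, scalings, spreads and left-out libraries.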

Additional observations from a re-analysis of the deposited data

Results flagged for a closer look

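The ABA effect at 12 h differed from the mean effect of the other 6 times in 5 miRNAs, by the limma test of that difference. The differences were -2.08 for miR395b, -2.07 for miR395c and -2.06 for miR395f, which are 1 sequence, 1.03 for miR2111b-3p and -1.18 for miR169f-3p (log2). For miR395b the mean log2 ratio of the other 6 times was 0.89, against -1.26 at 12 h. For miR2111b-3p it was 1.43, against 2.44 at 12 h, and for miR169f-3p 0.27, against -0.92 at 12 h. Mock library b of 12 h moves with all 5, since 0 passed without it, and its part in them was not tested. Groups of 2 libraries are too small for a test of single outlying libraries.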

How the results depend on the processing

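No paired analysis was possible because the deposited columns are group means and the recovered library values carry no replicate number. No sign of a called miRNA changed under any alternative run. The 39 calls at 12 h were 19 to 23 with 1 library left out, 98 with only the libraries of 12 h, and 32 to 49 under the other settings. Of the 39, 17 kept their call in every setting in which they were tested, 18 in all 4 fits with 1 library left out, and 11 lost it in all 4. The 5 calls against the other times were 0 to 8 with 1 library left out and 12 with quantile normalization, which also gave 50 calls against 9 h and 1 against 24 h. The cause was not tested. The 46 miRNAs past 2-fold were 41 to 59 under other pseudocounts, filters and scalings. The abundant miRNAs lack library values, so their spread is unknown. A group has 2 libraries, and the lone library of a group in the fits that leave 1 out is taken to vary like the other groups.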
